A study of Mus musculus with 4 samples.

Results

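Immune checkpoint ligands are surface or secreted proteins through which a tumor cell restrains, or less often engages, T cells, natural killer cells and macrophages. The genes described here are Cd274, Pdcd1lg2, Cd80, Cd276, Vtcn1, Nt5e, Cd47, Pvr, Lgals9 and Cd40. They were taken by symbol from the deposited expression table, where all 10 were present among 38713 genes with values. Each gene's level was read in 4 mammary tumor cell lines, and 7 of the 10 passed the filter on low values, as did 12998 genes of the whole table.

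The lines came from mammary tumors of C57BL/6 mice that carried Wap-Cre, a transgene that drives Cre recombinase in milk-producing mammary epithelium, and floxed Trp53 alleles. All 4 lines therefore lacked Trp53 (the p53-/- label), and the controls were not normal tissue. The JNK_WT lines, replicates 1 and 2, had intact JNK genes. The JNK_KO lines, replicates 1 and 3 (p53-/- JNK-/-), also lacked Mapk8 and Mapk9, the genes of JNK1 and JNK2. Each line was grown from 1 tumor by dispersal with collagenase and passage on collagen, and each gave 1 library. The ages of the animals were not in the labels, and their immune and stromal content is given below by marker genes. Each p-value below sets a difference against the spread between 2 tumor lines of each genotype, with information on spread shared across all tested genes.

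The PD-1 ligands, CD80, B7-H3 and B7-H4 belong to the B7 family, which binds receptors of the CD28 family and others on T cells. Other members work by different means. CD73, the product of Nt5e, makes adenosine outside the cell. CD47 binds SIRPα on macrophages and restrains phagocytosis. The poliovirus receptor CD155 (Pvr) binds TIGIT and CD226, and galectin-9 (Lgals9) binds TIM-3. CD40 is a receptor rather than a ligand, and activates NF-κB when bound by CD40L. Interferon-γ acting through JAK1 and JAK2 is the best known inducer of Cd274.

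Values were FPKM, the number of fragments per kilobase of transcript scaled to the mapped fragments of each library, which can be compared between genes because they are divided by length. The sums of FPKM ranged from 775960 to 921595 per library. Depths were estimated from genes with very low values, within a preset window that bounds the result, at about 43.4 M to 58.6 M reads. The numbers of reads given below use these depths and the summed exon length, so at a given depth they are upper estimates. Mapk8 was 23.9 and 19.1 FPKM in the JNK_WT lines and 4.30 and 4.27 FPKM in the JNK_KO lines. Mapk9 was 29.7 and 24.3 FPKM against 12.6 and 8.66 FPKM. Both targeted genes were lower in each JNK_KO line, as labelled, although a value for a whole gene does not show the deleted exons. Neither passed the test after adjustment (limma adjusted p = 0.191 and 0.429).

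The members spanned more than 3 orders of magnitude. By the mean of the 4 lines, on the FPKM scale, Nt5e (44.9 ± 31.7, SD, n = 4) and Lgals9 (44.6 ± 19.0) were highest. Cd276, Cd47 and Pvr followed at 31.1, 27.7 and 19.5 FPKM. Vtcn1 (8.85) and Cd274 (1.30) lay below these, and Cd40 (0.260), Cd80 (0.0286) and Pdcd1lg2 (0.00612) lay under the filter of 1 FPKM in at least 2 libraries. The ranges over the 4 lines overlapped for every pair of neighbors in this order except Pvr and Vtcn1, where the lowest Pvr value exceeded the highest Vtcn1 value. Nt5e was the highest member in both JNK_WT lines, and Lgals9 was the highest in both JNK_KO lines.

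**Figure D1:**
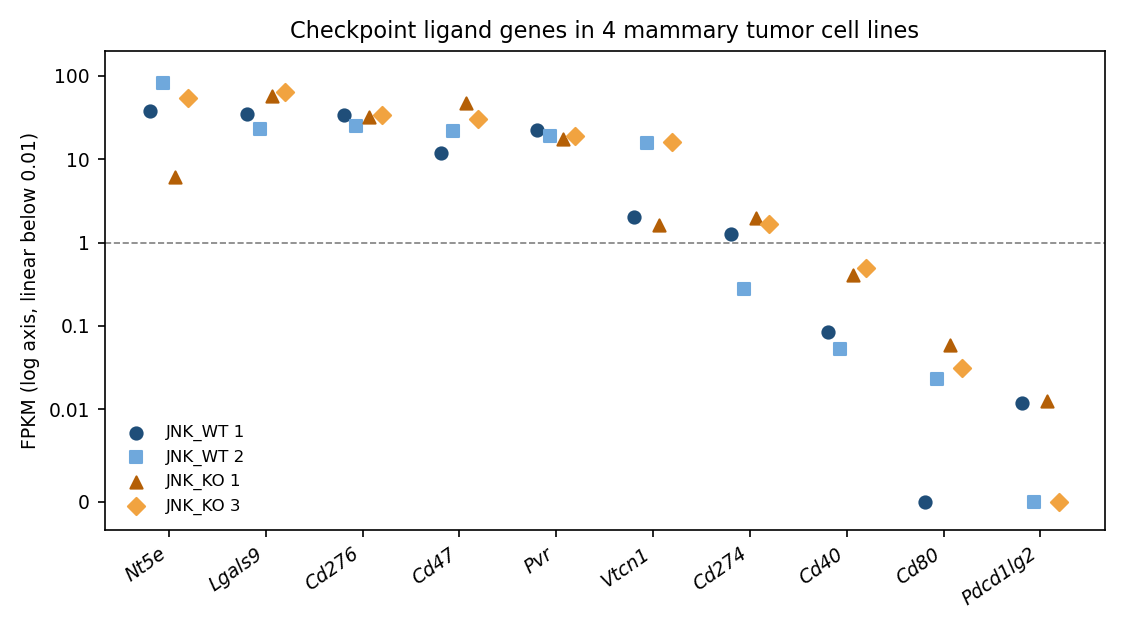
FPKM of the 10 checkpoint genes (horizontal axis, ordered by mean) in each of the 4 tumor lines (1 symbol per library). The vertical axis is logarithmic and becomes linear below 0.01 FPKM so that values listed at 0 can be drawn, and the dashed line marks 1 FPKM. The 5 genes at the left have nearly all values above 10 FPKM (Nt5e in JNK_KO 1 is 6.13), and Cd40, Cd80 and Pdcd1lg2 lie below 1 FPKM in every line.

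The question put to these genes was whether their level differed between JNK_KO and JNK_WT tumor cells. Lgals9, Cd47 and Cd274 were each higher in both JNK_KO lines than in either JNK_WT line, and the 4 other tested members overlapped between genotypes. No member passed the test. In bulk RNA, a change in the number of cells that express a gene and a change in RNA per cell cannot be told apart. With limma on log2(FPKM + 1) over all tested genes, 0 of 7 members had an adjusted p under 0.05 with a log2 difference beyond 0.75 in size, as for all genes (0 of 12998, 0.0%). At an unadjusted p under 0.05 there were 2 members, Cd47 and Lgals9, against 992 of all genes (7.63%). A log2 difference over 0.75 in favor of JNK_KO was held by 2 members, again Cd47 and Lgals9 (all genes, 9.25%). A difference of that size in the other direction was held by 1, Nt5e (all genes, 6.43%). Groups did not overlap, with JNK_KO higher, in 3 of the 7 (all genes, 18.3%), and with JNK_KO lower in 0 (all genes, 16.7%). Of the 3, Cd274 was under 1 FPKM in JNK_WT 2 and passed the filter only with its JNK_KO values. With 7 genes, these counts are a description of the members. The median difference of the 7 was 0.18 on the log2 scale, beside 0.01 for all tested genes.

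**Figure D2:**
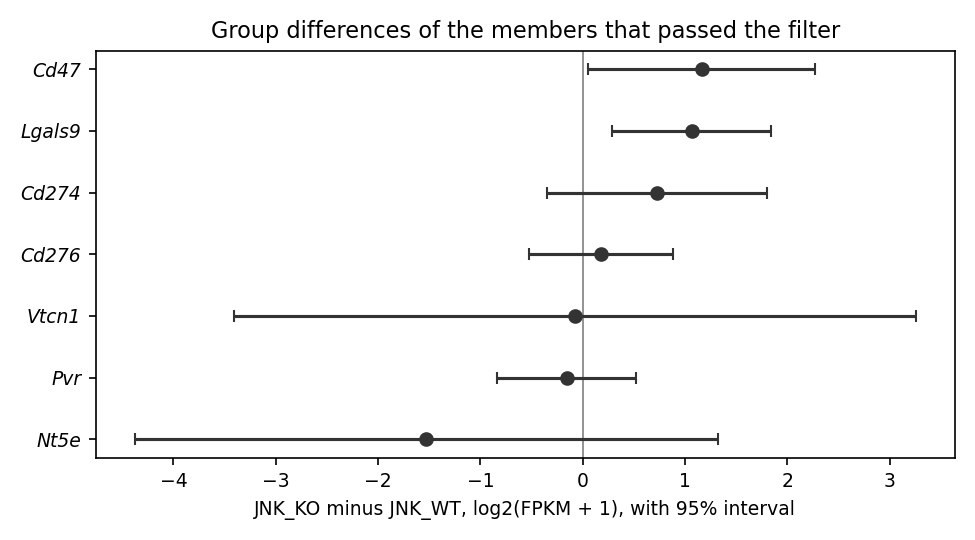
Difference between genotypes (JNK_KO minus JNK_WT, mean of 2 lines each) on the log2(FPKM + 1) scale for the 7 members that passed the filter, with the 95% interval from limma. The intervals of Cd47 and Lgals9 lie above 0 before adjustment for the number of genes, and those of Vtcn1 and Nt5e are the widest.

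Cd274 encodes PD-L1, which binds PD-1 on activated T cells. The gene lies on chromosome 19 at 29367455 to 29388095 on the plus strand (GRCm38). Its level was 1.27 and 0.275 FPKM in JNK_WT lines 1 and 2, and 1.96 and 1.68 FPKM in JNK_KO lines 1 and 3. Both JNK_KO lines were above both JNK_WT lines, but only just above JNK_WT 1, and the low JNK_WT 2 set most of the difference. With JNK_WT 2 under 1 FPKM, the gene passed the filter only with its JNK_KO values. The means were 0.771 ± 0.701 and 1.82 ± 0.199 FPKM (SD, n = 2 each), a ratio of 2.36. The log2 difference was 0.73 with an SE of 0.40 and a 95% interval from -0.35 to 1.81 (limma adjusted p = 0.839). It was 0.31 when JNK_WT 2 was left out. The size also followed the scale, at 1.42 with a pseudocount of 0.1, 0.98 with 0.5 and 0.46 with quantile normalization, and the limma adjusted p ranged from 0.545 to 1.0 over all alternatives. These values rested on at most 211 and 54 reads in JNK_WT and 308 and 356 in JNK_KO. Cd274 was a low transcript in each line: only 3.1 to 11.1% of tested genes were below it. An antisense gene, AC119228.1, overlaps it in the annotation, and the use of strand in counting was not stated.

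The 250 bases before the RefSeq start of Cd274 and of Lgals9 are printed because interferon-responsive elements are sought in such windows and because both genes were higher in the JNK_KO lines. They are from GRCm38.p6, read 5′ to 3′ along each gene's own strand, at chr19:29367188-29367437 (plus strand) and chr11:78984925-78985174 (minus strand). Capitals mark a match to the core of the interferon-stimulated response element (ISRE).

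Cd274: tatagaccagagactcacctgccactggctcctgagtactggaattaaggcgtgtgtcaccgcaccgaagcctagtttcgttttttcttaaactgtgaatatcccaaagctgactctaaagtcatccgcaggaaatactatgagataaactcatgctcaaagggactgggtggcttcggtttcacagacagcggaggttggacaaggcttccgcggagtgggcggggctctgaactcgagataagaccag

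Lgals9: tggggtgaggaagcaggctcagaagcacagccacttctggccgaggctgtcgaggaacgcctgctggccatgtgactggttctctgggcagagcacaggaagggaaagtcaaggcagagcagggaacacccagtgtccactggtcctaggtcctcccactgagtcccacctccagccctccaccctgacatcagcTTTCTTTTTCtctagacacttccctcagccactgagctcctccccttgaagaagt

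The ISRE core was searched as GAAA, any 2 bases and GAAA again, on both strands, from 250 bases before to 50 bases after the start. Lgals9 held 2 matches, at -55 to -46 (TTTCTTTTTC, printed in capitals) and at 16 to 25 after the start (TTTCTGTTTC), both on the strand opposite to the gene. The same core was present in 3.44% of 32851 RefSeq promoters. No match lay in the Cd274 window. The interferon-γ-activated site (GAS, TTCNNNGAA) was in 8.3% of all promoters, the AP1 site (TGANTCA) in 7.81% and the NF-κB site in 8.46%. Of the 8 members with a promoter sequence, Vtcn1 held an AP1 site at 2 to 8 (TGAGTCA) and Cd80 at -42 to -36 (TGATTCA). Pdcd1lg2 held an NF-κB site at -244 to -235 (GGGGAATCCC), and Cd274, Cd276, Nt5e and Cd47 held none of the 4 motifs. A match of letters is not evidence that a factor binds. The lack of a match to these patterns in this window does not show that a gene lacks such an element.

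Pdcd1lg2, the gene of PD-L2, the other PD-1 ligand, lies beside Cd274 on chromosome 19 (29410919 to 29471161). It was listed at 0.0119 and 0 FPKM in JNK_WT lines 1 and 2 and at 0.0126 and 0 FPKM in JNK_KO lines 1 and 3, which is about 1 read where it was above 0. PD-L2 RNA was thus at the limit of detection in each line, and no difference could be seen at this depth. It overlaps an antisense gene, A930007I19Rik. Cd80, which binds CD28 and CTLA-4 (chromosome 16, 38455561 to 38496335), was at 0 and 0.0234 FPKM in JNK_WT and 0.0593 and 0.0316 FPKM in JNK_KO. Both JNK_KO values were above both JNK_WT values, on at most 10 and 7 reads against 0 and 5. Both genes were under the filter, and in a fit with no filter the limma adjusted p was 1.0 for each.

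The B7 genes usually described as inhibitory, Cd276 (B7-H3) and Vtcn1 (B7-H4), behaved differently from each other. Cd276, on chromosome 9 (58524298 to 58555437, minus strand), was 33.4 and 25.0 FPKM in JNK_WT and 32.1 and 33.7 FPKM in JNK_KO. The groups overlapped, with JNK_WT 2 below the 3 other lines. Gm10657 overlaps the gene in the annotation. JNK_KO minus JNK_WT was 0.18 on the log2 scale (SE 0.26, 95% interval -0.52 to 0.88, limma adjusted p = 0.996). 

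Vtcn1, on chromosome 3 (100825459 to 100896922), split the lines within each genotype. Its level was 2.02 and 15.7 FPKM in JNK_WT lines 1 and 2, and 1.65 and 16.1 FPKM in JNK_KO lines 1 and 3. One line of each genotype was high and the other low, so the genotype means were alike, at 8.84 ± 9.64 and 8.87 ± 10.2 FPKM (SD, n = 2 each). The high line exceeded the low line 7.75-fold in JNK_WT and 9.78-fold in JNK_KO, on at most 2233 and 2471 reads in the high lines and 243 and 187 in the low lines. The log2 difference between genotypes was -0.08 with a 95% interval from -3.41 to 3.26 (limma adjusted p = 0.999), so that these lines set no close limit on a difference in either direction. The lines high in Vtcn1 were also those high in Krt14, a basal keratin chosen for mention after its values were seen. Krt14 was 7.34 and 443 FPKM in JNK_WT, and 26.7 and 313 FPKM in JNK_KO. Krt5, another basal keratin named after its values were seen, was high in JNK_WT 2 alone. It was 0.0316 and 61.9 FPKM in JNK_WT lines 1 and 2, and 0.110 and 0.205 FPKM in JNK_KO lines 1 and 3.

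Galectin-9 is a secreted sugar-binding protein. Lgals9 lies on chromosome 11 (78962974 to 78984946, minus strand). It was 34.7 and 23.1 FPKM in JNK_WT lines 1 and 2 and 57.3 and 63.5 FPKM in JNK_KO lines 1 and 3. The genotypes did not overlap for this gene: the lower JNK_KO line was 1.65 times the higher JNK_WT line. The JNK_WT lines themselves differed 1.5-fold. The means were 28.9 ± 8.20 and 60.4 ± 4.37 FPKM (SD, n = 2 each), a ratio of 2.09. The log2 difference was 1.07 with an SE of 0.29 and a 95% interval from 0.29 to 1.84, and it did not pass after adjustment over all genes (limma adjusted p = 0.475, from 0.428 to 1.0 over the alternative settings). Leaving out each line in turn gave log2 differences of 0.78 to 1.35.

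Pvr, on chromosome 7 (19903578 to 19921160, minus strand), was 22.2 and 19.0 FPKM in JNK_WT and 17.5 and 19.2 FPKM in JNK_KO. All 4 lines were within a narrow band and the genotypes overlapped. The difference on the log2 scale was -0.16 (SE 0.25, 95% interval -0.83 to 0.52, limma adjusted p = 0.999). A pseudogene (Gm16184) and an antisense gene (Gm16251) overlap Pvr, and reads from them could not be told apart from its own.

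Nt5e, on chromosome 9 (88327197 to 88372092), was the most variable of the abundant members. It was 37.9 and 82.2 FPKM in JNK_WT lines 1 and 2, and 6.13 and 53.5 FPKM in JNK_KO lines 1 and 3. The genotypes overlapped, and JNK_KO 1 stood apart from the other lines, with a 13.4-fold range over all 4. The means were 60.05 ± 31.3 and 29.8 ± 33.5 FPKM (SD, n = 2 each). The log2 difference was -1.53 (SE 1.07, 95% interval -4.38 to 1.32, limma adjusted p = 0.913), and it was -0.06 without JNK_KO 1. The line lowest in Nt5e, JNK_KO 1, was also the lowest in Vtcn1, whereas JNK_WT 2 and JNK_KO 3 were the highest lines for both genes.

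Cd47, on chromosome 16 (49800533 to 49915010), was 11.9 and 22.1 FPKM in JNK_WT lines 1 and 2 and 46.7 and 30.3 FPKM in JNK_KO lines 1 and 3. Both JNK_KO lines were above both JNK_WT lines, and the nearest pair differed 1.37-fold. The means were 17.0 ± 7.17 and 38.5 ± 11.6 FPKM (SD, n = 2 each), a ratio of 2.27. The log2 difference was 1.16 with an SE of 0.42 and a 95% interval from 0.06 to 2.27, and it did not pass after adjustment (limma adjusted p = 0.631, from 0.395 to 1.0 over the alternative settings). Leaving out each line in turn gave 0.74 to 1.58.

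Cd40, on chromosome 2 (165055627 to 165072948), had the widest relative separation of the members but few reads. It was 0.0838 and 0.0525 FPKM in JNK_WT lines 1 and 2 and 0.406 and 0.499 FPKM in JNK_KO lines 1 and 3, on at most 13, 10, 60 and 100 reads in that order. The lower JNK_KO line was 4.84 times the higher JNK_WT line. The means were 0.0682 ± 0.0221 in JNK_WT and 0.453 ± 0.0656 FPKM in JNK_KO (SD, n = 2 each), a ratio of 6.64, although each value was under 1 FPKM and the gene was not tested in the filtered fit. In a fit with no filter, the limma adjusted p was 0.506, and it ranged from 0.506 to 1.0 over the settings that gave one. A log2 difference on the FPKM + 1 scale understates the change of so low a gene: it was 0.44, and 1.72 with a pseudocount of 0.1.

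**Figure D3:**
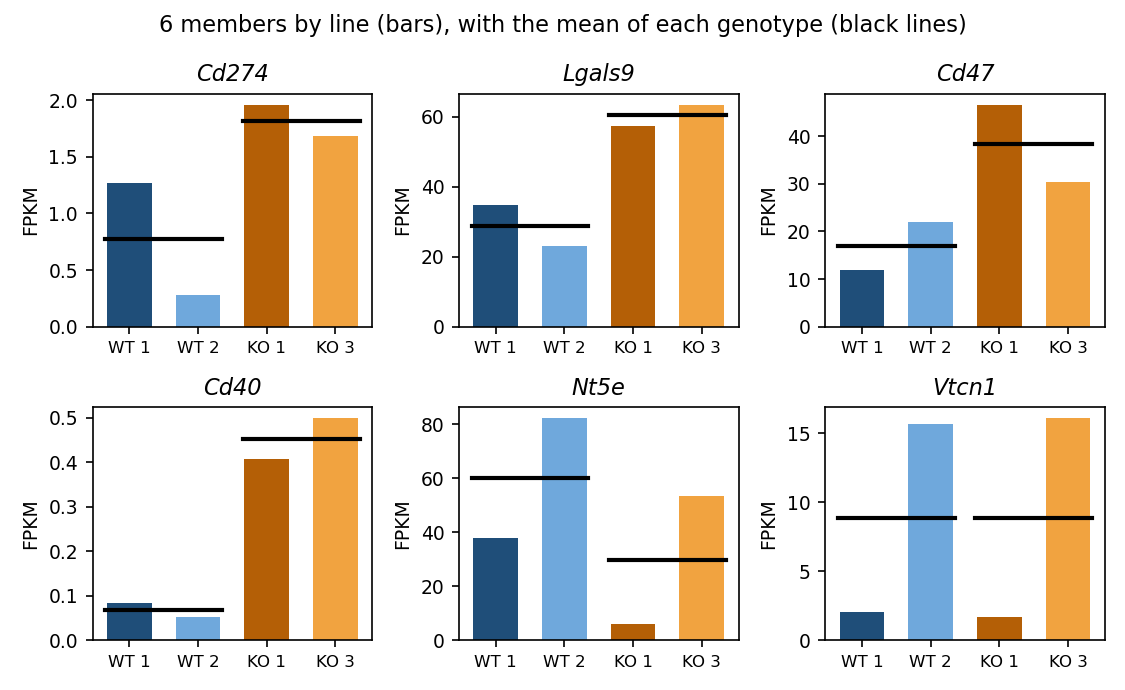
FPKM of 6 members in each tumor line (bars, 1 library each, axes from 0) with the mean of each genotype (black lines). Cd274, Lgals9, Cd47 and Cd40 have both JNK_KO bars above both JNK_WT bars, whereas Nt5e and Vtcn1 differ more between lines of a genotype than between genotypes.

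Further ligands and enzymes of the same pathways were taken from lists. None of the genes on any list passed the test (limma, 0 called in each list). Of 27 other co-signalling ligands 17 were tested, of which 4 had an unadjusted p under 0.05 (all genes, 7.63%) and the same 4 were higher in both JNK_KO lines (all genes, 18.3%). The list median was 0.21 on the log2 scale. The 4 were H2-T23, a nonclassical class I gene whose product presents to NKG2A, and Raet1d, Raet1e and H60b, whose products bind the activating receptor NKG2D. H2-T23 was 14.7 and 23.2 FPKM in JNK_WT and 38.8 and 63.7 FPKM in JNK_KO (log2 difference 1.38, limma adjusted p = 0.481). Raet1d was 0.0885 and 0 FPKM in JNK_WT and 3.42 and 1.36 FPKM in JNK_KO (limma adjusted p = 0.451). H60b was 0.0600 and 0.115 FPKM against 3.83 and 1.19 FPKM (limma adjusted p = 0.519). The 3 NKG2D ligand genes passed the filter only through the JNK_KO lines, and they overlap one another or belong to a family of near copies, so that reads may have been split among them.

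Around CD73, 8 of 14 genes that make, degrade, move or sense adenosine were tested, and their median log2 difference was -0.02. Entpd2, which removes phosphate from extracellular ATP, was 1.21 and 0.36 FPKM in JNK_WT and 4.45 and 3.18 FPKM in JNK_KO (log2 difference 1.46, limma adjusted p = 0.468). Ada, which turns adenosine into inosine, was 3.89 and 0.600 FPKM in JNK_WT and 5.08 and 5.56 FPKM in JNK_KO (limma adjusted p = 0.817). Both genes, 2 of the 8 tested, were higher in each JNK_KO line (all genes, 18.3%), while the other 6 tested genes overlapped. Both were under 1 FPKM in JNK_WT 2 and passed the filter only with their JNK_KO values. With 8 genes, this count is a description. Enpp3, another ectoenzyme of the list, overlapped, with a log2 difference of -0.52 (limma adjusted p = 0.999). Entpd2 overlaps Npdc1 in the annotation.

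Of 8 genes linked to the restraint or promotion of phagocytosis, 7 were tested. Sirpa, which encodes the receptor for CD47 and is usually a myeloid gene, was 0.309 and 0.354 FPKM in JNK_WT and 13.8 and 11.4 FPKM in JNK_KO. The log2 difference was 3.35 with an SE of 0.31 (limma adjusted p = 0.102), and the gene passed the filter only through the JNK_KO lines. The ligand Cd47 and its receptor gene were therefore both higher in the JNK_KO lines, without either passing the adjusted test. Calr, an "eat me" signal of dying cells, was 237 and 178 FPKM in JNK_WT and 429 and 269 FPKM in JNK_KO (log2 difference 0.72, limma adjusted p = 0.766). Lrp1, which recognizes calreticulin, overlapped between genotypes (log2 difference 0.64, limma adjusted p = 0.953).

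A list of CD40 and NF-κB signalling genes was read next, and whether CD40 drove their levels was not tested. Of its 15 genes, 14 passed the filter. Of these, 6 had an unadjusted p under 0.05 (all genes, 7.63%), 8 were higher in both JNK_KO lines (all genes, 18.3%) and 1 was lower (all genes, 16.7%). The median log2 difference was 0.29. The largest 3 were Birc3, Birc2 and Traf1, inhibitors and adaptors that sit on TNF family receptors. Birc3 was 14.7 and 9.01 FPKM in JNK_WT and 72.6 and 46.1 FPKM in JNK_KO (log2 difference 2.23, limma adjusted p = 0.256). Birc2 was 8.73 and 4.95 FPKM against 31.5 and 22.4 FPKM (limma adjusted p = 0.343). Traf1 was 8.44 and 11.0 FPKM against 51.5 and 24.6 FPKM (limma adjusted p = 0.430). The ligand Cd40lg was listed at 0 in all 4 lines, and Traf3, an inhibitor of the noncanonical pathway, was the gene that was lower, at 17.9 and 11.0 FPKM in JNK_WT and 8.06 and 8.91 FPKM in JNK_KO.

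Of 18 regulators of Cd274, all tested, 4 had an unadjusted p under 0.05 (all genes, 7.63%), 9 were higher in both JNK_KO lines (all genes, 18.3%) and 1 was lower (all genes, 16.7%). Their median log2 difference was 0.29. Jak2, a kinase bound to the interferon-γ receptor, was 17.3 and 8.84 FPKM in JNK_WT and 67.9 and 21.6 FPKM in JNK_KO (limma adjusted p = 0.713). Ifngr2, a chain of the interferon-γ receptor, was 15.5 and 16.5 FPKM against 40.2 and 39.4 FPKM (limma adjusted p = 0.290). In contrast Irf1, an activator of the Cd274 promoter, overlapped between genotypes, at 54.4 and 34.3 FPKM in JNK_WT and 30.1 and 40.4 FPKM in JNK_KO. Cmtm6, whose product stabilizes PD-L1 protein, also overlapped, at 16.3 and 34.2 FPKM against 24.9 and 34.8 FPKM.

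**Figure D4:**
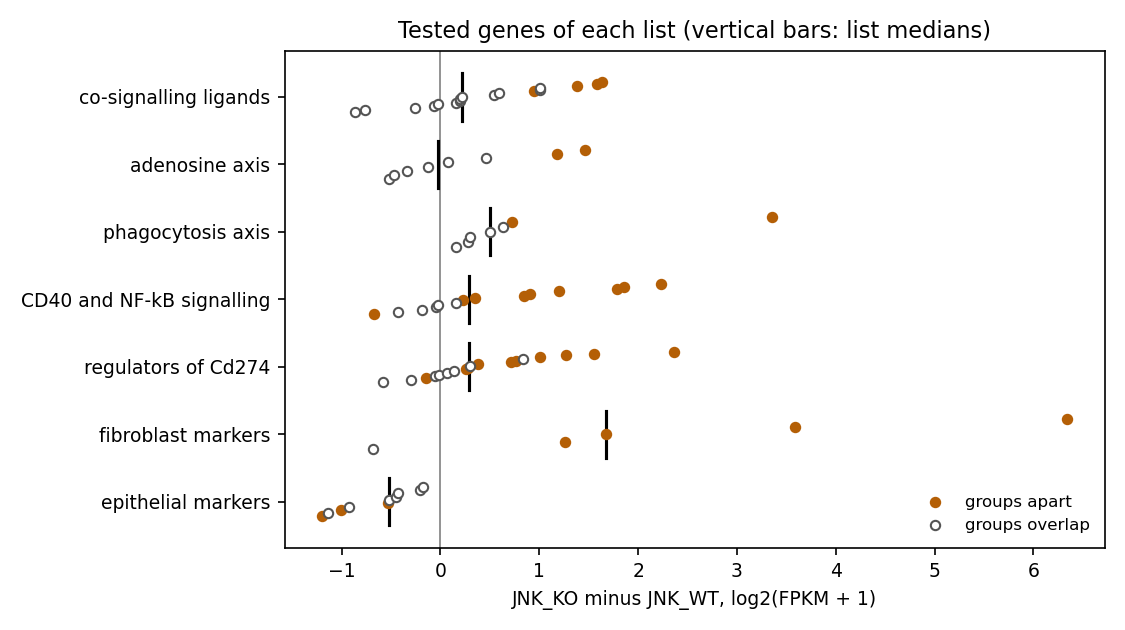
Difference between genotypes (JNK_KO minus JNK_WT) on the log2(FPKM + 1) scale for each tested gene of 7 lists, with the list median as a vertical bar. Filled points are genes whose 2 lines of one genotype lie above both lines of the other, and open points are genes that overlap. Sirpa stands alone at 3.35 on the phagocytosis list.

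The 5 genes whose pattern over the 4 lines lay closest to that of Cd274 were Ehbp1l1, Ppard, Gm3625, Acat1 and Mmp19. Distances were Euclidean on the log2(FPKM + 1) scale, after each gene's own mean over the lines was subtracted, and ran from 0.067 to 0.113. With 4 points each, such likeness is a description and speaks only of differences between these lines. It does not speak of level: Gm3625 was 41.0 to 98.1 FPKM, whereas Cd274 was 0.275 to 1.96 FPKM.

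The lines held little RNA of immune cells. Of 25 leukocyte markers, 19 were under 1 FPKM in all libraries and 7 were at 0 in all of them, including Cd3g, Ms4a1, Tyrobp and H2-Aa. Ptprc (CD45) was at most 0.0134 FPKM. Besides Cd14 and Cd68, the markers above 1 FPKM in some line were Cd74, Csf1r, Flt3 and Aif1. Cd74 was 5.04 and 1.73 FPKM in JNK_WT and 7.84 and 6.69 FPKM in JNK_KO. Csf1r, Flt3 and Aif1 were at most 2.24 FPKM. The summed level of the list was 39.4 and 239 FPKM in JNK_WT and 139 and 159 FPKM in JNK_KO, most of it from Cd14 (11.9 and 233 FPKM in JNK_WT, 125 and 140 FPKM in JNK_KO) and Cd68. All 8 endothelial markers were under 1 FPKM in all libraries, with sums of 0.804 to 1.52 FPKM. The tested epithelial markers numbered 10 of 10 and were abundant in every line. They summed to 5014 and 3943 FPKM in JNK_WT and 1817 and 3516 FPKM in JNK_KO. Their median log2 difference was -0.52. Of the 10, 3 were lower in both JNK_KO lines (all genes, 16.7%) and 0 were higher (all genes, 18.3%). Of 10 fibroblast markers, 5 were tested, and 4 of those were higher in both JNK_KO lines (all genes, 18.3%), but all 4 passed the filter only through the JNK_KO lines. The list had sums of 12.5 and 2.76 FPKM in JNK_WT and 114 and 180 FPKM in JNK_KO, where most of it was Dcn. Col1a1 and Lum were under 1 FPKM in all 4 lines. Col1a2, the fifth marker tested, was highest in JNK_WT 1, at 10.3 and 0.374 FPKM in JNK_WT and 0.698 and 2.56 FPKM in JNK_KO. Dcn, Pdgfra, Pdgfrb and Fbln1 were thus higher in the same 2 lines as Lgals9, Cd47, Cd274 and Cd40, and their part in those differences was not tested.

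**Figure D5:**
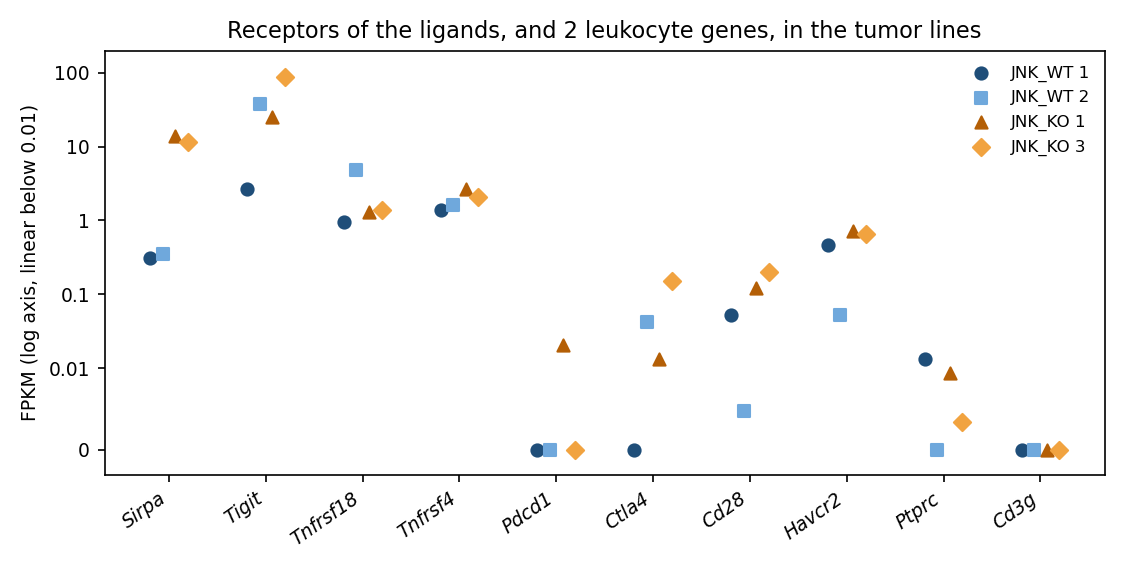
FPKM in each tumor line (1 symbol per library) of Sirpa, Tigit and 6 other receptors of the ligands, and of the leukocyte genes Ptprc and Cd3g. The vertical axis is logarithmic and linear below 0.01 FPKM. Tigit is between 2.65 and 87.7 FPKM and Sirpa is above 10 FPKM in both JNK_KO lines, whereas Ptprc and Cd3g are at or near 0.

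Receptors of the ligands were for the most part not expressed: 12 of 16 were under 1 FPKM in all libraries, and Pdcd1, the PD-1 gene, was above 0 in JNK_KO 1 alone, at 0.0205 FPKM. Tigit, a receptor of CD155 known from T cells and natural killer cells, was 2.65 and 38.0 FPKM in JNK_WT lines 1 and 2 and 25.3 and 87.7 FPKM in JNK_KO lines 1 and 3. The groups overlapped (log2 difference 2.02, limma adjusted p = 0.886). These levels stood beside Cd3g and Cd226 at 0 in all 4 lines, and no annotated gene overlaps Tigit. Whether its reads come from the Tigit transcript was not tested, since only FPKM values were used here. Tnfrsf18 and Tnfrsf4, receptors of the TNF family, had log2 differences of -0.53 and 0.44 (limma adjusted p = 0.983 and 0.908).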

How the data were processed

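Cell lines from 4 mammary tumors were profiled by RNA-seq (TruSeq libraries, single-end reads). Per the labels and methods, the authors trimmed the reads, aligned them to mm10 with TopHat2 2.0.14 and Bowtie2, and quantified genes with Cufflinks 2.2.1. The deposited values are FPKM, normalized by transcript length and mapped fragments. The annotation and the use of strand were not given in the sources used here, and the labels named no batch. Of 38741 rows, 27 that carried dates as symbols were dropped, as was 1 gene without a value. Genes with FPKM of at least 1 in at least 2 libraries were tested on log2(FPKM + 1) with limma 3.58.1 (R 4.3.3, eBayes with trend, two-sided, Benjamini-Hochberg over all 12998 genes). A call required adjusted p under 0.05 and a log2 difference over 0.75 in size. A permutation of 2 against 2 lines cannot give a p below 0.333, so none was run. The value of 1 read was taken as a median of FPKM times exon length in kb, over protein-coding genes with 1 annotated transcript. Only products between 0.01 and 0.03 were used, so this window bounds the depths found. Reads per gene were estimated from that value and the summed exon length, which makes them upper estimates at a given depth. They cover counting error only, and the FPKM table itself holds no counts.

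The members and gene lists were chosen with earlier results of these data known. Named genes were the members, the 3 tested genes with the largest difference in size on each list and the cell type markers. The 5 genes nearest to Cd274 in pattern were also named by rule. Some genes that this rule names are not reported here. Others, such as Raet1e, Traf3, Cd40lg, Irf1, Cmtm6, Cd226, Pdcd1, Krt14 and the genes that overlap members, were named after their values were seen. Positions are from GENCODE M21 (GRCm38) and promoter sequences from RefSeq on GRCm38.p6, which held 8 of the 10 members (not Pvr and Cd40). Alternatives were other pseudocounts, filters, scalings and moderation settings, and leaving out each line.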

Additional observations from a re-analysis of the deposited data

How the results depend on the processing

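No member was called under any setting. Calls over all genes numbered 0 in the main setting, 10 with a pseudocount of 0.1, 14 with 0.5, 15 with TPM scaling and 14 without the intensity trend. The number of members over the threshold of difference was 3, and leaving out each line gave 3 to 5. The number of members whose groups do not overlap was 3, was 5 with no filter, and was 4 to 6 on leaving out each line. The median of the members (0.18) went from 0.14 to 0.66 on leaving out each line. The median of the co-signalling ligands (0.21) was 0.55 with a pseudocount of 0.1, 0.37 with 0.5 and 0.0598 with no filter, and 0.43 to 1.003 on leaving out each line. That of the regulators of Cd274 (0.29) was 0.21 with TPM scaling and 0.26 to 0.42 on leaving out each line. The causes were not tested. Of 113 alternatives of single members, 107 kept the direction. Those that reversed were Pdcd1lg2 with TPM scaling (-0.0011) and, on leaving out each line, Pdcd1lg2 (-0.0085 to 0.0096), Cd276 (-0.0233 to 0.38) and Vtcn1 (-1.42 to 1.27). No paired analysis was possible because the lines came from separate tumors and the labels gave no pairing between genotypes. Cd40, Cd80 and Pdcd1lg2 have no value under quantile normalization or the filter at a mean of 5 FPKM, nor Cd274 under that filter. The fit with no filter and a pseudocount of 0.1 was added after the data were seen. Depth limits Pdcd1lg2, Cd80 and Cd40, at no more than 100 reads in any line.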

Other observations

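Among the further ligands, the galectin genes Lgals1 and Lgals3 were each above every member within each of the 4 lines. Lgals1, whose product binds glycans on T cells, was 1891 and 314 FPKM in JNK_WT lines 1 and 2 and 1040 and 402 FPKM in JNK_KO lines 1 and 3. Lgals3 was 77.5 and 253 FPKM in JNK_WT and 246 and 323 FPKM in JNK_KO. Both overlapped between genotypes. Ido1, which depletes tryptophan, was at 0 in both JNK_WT lines and at 0.155 and 0.0368 FPKM in JNK_KO. The adenosine receptor genes Adora2a and Adora2b were under the filter and lay on opposite sides. Adora2a was 0.0701 and 0.176 FPKM in JNK_WT and 1.84 and 0.641 FPKM in JNK_KO, whereas Adora2b was 0.652 and 0.728 FPKM in JNK_WT and 0.0380 and 0.0449 FPKM in JNK_KO. The adenosine transporter gene Slc29a1 was 56.3 and 364 FPKM in JNK_WT and 142 and 162 FPKM in JNK_KO, and overlapped. The genes in this section were chosen after their values were seen.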
